A study of Mus musculus with 11 samples.

Results

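The genes described here are 9 of the 24294 gene symbols measured in mouse small intestine: Npc1l1, Abcg5, Abcg8, Abca1, Abcg1, Soat2, Nr1h3, Mylip and Lpcat3. They were chosen by name, as genes of intestinal sterol uptake, efflux and esterification and as targets of the liver X receptor (LXR). No cut-off on their measured values was used, but earlier results of these data were known when they were chosen. RNA of bulk small intestine was sequenced in 11 libraries: 4 labelled HLJDD, 4 labelled HFD and 3 labelled ND. HLJDD matches the initials of the herbal Huang Lian Jiedu Decoction in the series title, which concerns obese mice, lipid metabolism and the gut hormone gastric inhibitory polypeptide. The labels used here neither spell out HFD and ND nor say which diet the HLJDD mice ate, and they give no dose, duration, strain, age or stretch of intestine. They do not state that different libraries came from different animals, so p-values here reflect library-to-library spread that could be technical.

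Cholesterol in the gut lumen enters the enterocyte, the absorptive cell of the villus, through NPC1L1, and part of it is pumped back out by the paired transporter ABCG5 and ABCG8. Inside the cell SOAT2 joins cholesterol to fatty acids for packing into chylomicrons, while ABCA1 at the basal side passes it to high density lipoprotein. LXR alpha, the product of Nr1h3, is a nuclear receptor for oxidised cholesterol and pairs with the retinoid X receptor on DNA. Among its known target genes are Abcg5, Abcg8, Abca1, Abcg1, Mylip, which encodes the ubiquitin ligase IDOL, and Lpcat3, which puts polyunsaturated fatty acids into phospholipids. SREBP2 is the opposing arm of sterol control, and turns on cholesterol synthesis and uptake genes when the cell's sterol falls.

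In RefSeq coordinates on GRCm38.p6, the assembly behind mm10, the genes lie on 7 chromosomes. Abcg5 (chromosome 17, 84658174 to 84683011, minus strand) and Abcg8 (chromosome 17, 84676302 to 84700333, plus strand) share 6710 annotated bases on opposite strands. The strand setting of the counting is not given in the sources used here, so reads from that overlap cannot be assigned to one gene with certainty. Abcg1 lies on the same chromosome (31057694 to 31117984, plus strand). Npc1l1 lies on chromosome 11 (6211011 to 6230245, minus strand), Abca1 on chromosome 4 (53030789 to 53159988, minus strand) and Soat2 on chromosome 15 (102150415 to 102163469, plus strand). Nr1h3 lies on chromosome 2 (91184061 to 91202829, minus strand) and Mylip on chromosome 13 (45389742 to 45411940, plus strand). Nr1h3 shares 6873 bases with the transcript model Gm13783 on its own strand. Lpcat3 lies on chromosome 6 (124663094 to 124704716, plus strand) and overlaps Emg1 by 334 bases on the opposite strand. All these shared bases, with those of Abcg5 and Abcg8, were counted on gene spans of the GENCODE annotation. In that annotation Lpcat3 runs from 124663027 to 124704418.

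Start-site windows of 300 bases were found for 7 of the 9 genes in a RefSeq table of 32851 such windows, and 3 motifs were searched on both strands. The window ahead of Abcg8 is shown because the 2 transporter genes share it. Its capitals mark 3 matches to the GATA motif AGATAA, and the Abcg8 start is 50 bases before its end.
Abcg8, chr17:84682871-84683170, plus strand: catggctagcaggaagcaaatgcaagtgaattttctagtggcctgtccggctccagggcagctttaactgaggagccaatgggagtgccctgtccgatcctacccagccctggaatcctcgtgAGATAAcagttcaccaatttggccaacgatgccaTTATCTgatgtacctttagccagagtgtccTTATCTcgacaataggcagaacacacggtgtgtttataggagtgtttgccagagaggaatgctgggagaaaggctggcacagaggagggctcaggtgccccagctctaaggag
The Abcg8 start of this window, base 84683121, is not the first base of the gene's full span given above, which lies inside Abcg5. With that start the windows of Abcg5 and Abcg8 share 209 bases, and the starts are 110 bases apart on diverging strands. The 3 matches begin 127, 93 and 63 bases before the Abcg8 start, and the last 2 of them lie between the starts. At least 1 GATA match occurred in 11.2% of all windows and at least 3 in 0.107% (35 windows). GATA factors are DNA-binding proteins, and Gata4 marks the upper small intestine. A match describes letters and does not show binding.

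**Figure D1:**
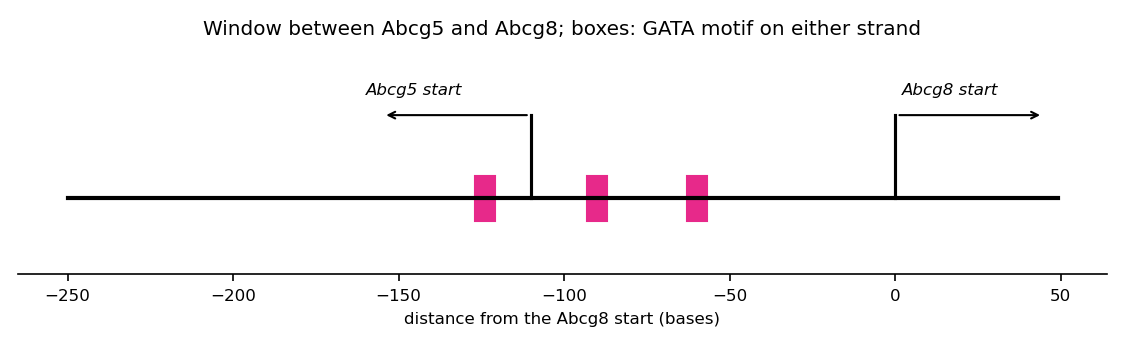
Start-site window of Abcg8, drawn as distance in bases from the Abcg8 start. Boxes are the 3 GATA matches on either strand and arrows are the starts used for the Abcg5 and Abcg8 windows, 110 bases apart. Of the matches, 2 lie between the starts.

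The Abca1 window is shown for the only LXR motif found among the members' windows. Its capitals mark a match to the LXR DR4 motif, a pair of repeated receptor sites with a short spacer, lying on the opposite strand and beginning 67 bases before the start used for the window, base 53159895.
Abca1, chr4:53159846-53160145, minus strand: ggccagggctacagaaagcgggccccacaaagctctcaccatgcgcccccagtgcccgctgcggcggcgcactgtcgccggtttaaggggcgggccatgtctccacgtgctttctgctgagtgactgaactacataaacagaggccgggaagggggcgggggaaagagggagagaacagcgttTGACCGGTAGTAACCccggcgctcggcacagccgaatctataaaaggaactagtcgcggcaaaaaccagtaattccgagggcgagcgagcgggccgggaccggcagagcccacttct
This motif occurred in 68 of the 32851 windows (0.207%). The windows matched to the other members held no such letters, which says nothing of LXR binding elsewhere at those genes. The Npc1l1 window is shown because Npc1l1 changed between groups. Its capitals mark a match, on the opposite strand, to the motif of the epithelial HNF1 factors, which begins 44 bases before the start.
Npc1l1, chr11:6230196-6230495, minus strand: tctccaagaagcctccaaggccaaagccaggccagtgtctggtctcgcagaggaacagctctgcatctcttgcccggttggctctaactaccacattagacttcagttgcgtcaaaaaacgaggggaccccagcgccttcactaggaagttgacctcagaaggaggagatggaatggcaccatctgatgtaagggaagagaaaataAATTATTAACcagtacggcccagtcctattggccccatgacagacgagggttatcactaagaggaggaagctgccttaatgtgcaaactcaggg
The HNF1 motif occurred in 131 windows (0.399%).

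Levels are FPKM values, in which the authors had divided each gene's fragments by its length and by the library total before depositing them. Between 30101888 and 37943272 reads in genes, recovered from those values, stood behind each library. Transcripts of the mitochondrial genome took 40.73% of the reads in HLJDD replicate 2 and 32.44% in HFD replicate 1, against 10.4% to 19.26% in the other 9 libraries. A second scale therefore accompanies the deposited one. It divides each library by a single factor, the median ratio of its genes to their mean over libraries, and is called median-ratio scaling. The log2 change of a gene is its mean log2(FPKM + 1) in one group minus that in the other, tested with limma and adjusted over the 10764 genes at 1 FPKM or more in at least 3 libraries. The call threshold was an adjusted p of 0.05. The median change of those genes was -0.13 for HLJDD against ND and -0.21 for HFD against ND as deposited, and 0.00 and -0.01 after scaling.

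The 9 genes spanned a wide range of levels. Lpcat3 was highest at 159.9 ± 29.1 FPKM (SD over the 11 libraries), followed by Npc1l1 (123.7 ± 48.4), Abcg5 (82.1 ± 15.04) and Soat2 (74.8 ± 11.3). Abcg8 (43.7 ± 9.39), Nr1h3 (28.5 ± 4.99), Abca1 (6.80 ± 3.66), Mylip (2.83 ± 2.02) and Abcg1 (0.282 ± 0.115) came after. Neighbours in this order kept it in all 11 libraries for Npc1l1 over Abcg5, Soat2 over Abcg8, Abcg8 over Nr1h3, Nr1h3 over Abca1 and Mylip over Abcg1. Lpcat3 exceeded Npc1l1 in 10 of 11 libraries, Abcg5 exceeded Soat2 in 8 and Abca1 exceeded Mylip in 10, so the order of Abcg5 and Soat2 was within their spread. Abcg1 was below the filter and was not tested; the other 8 genes passed it.

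**Figure D2:**
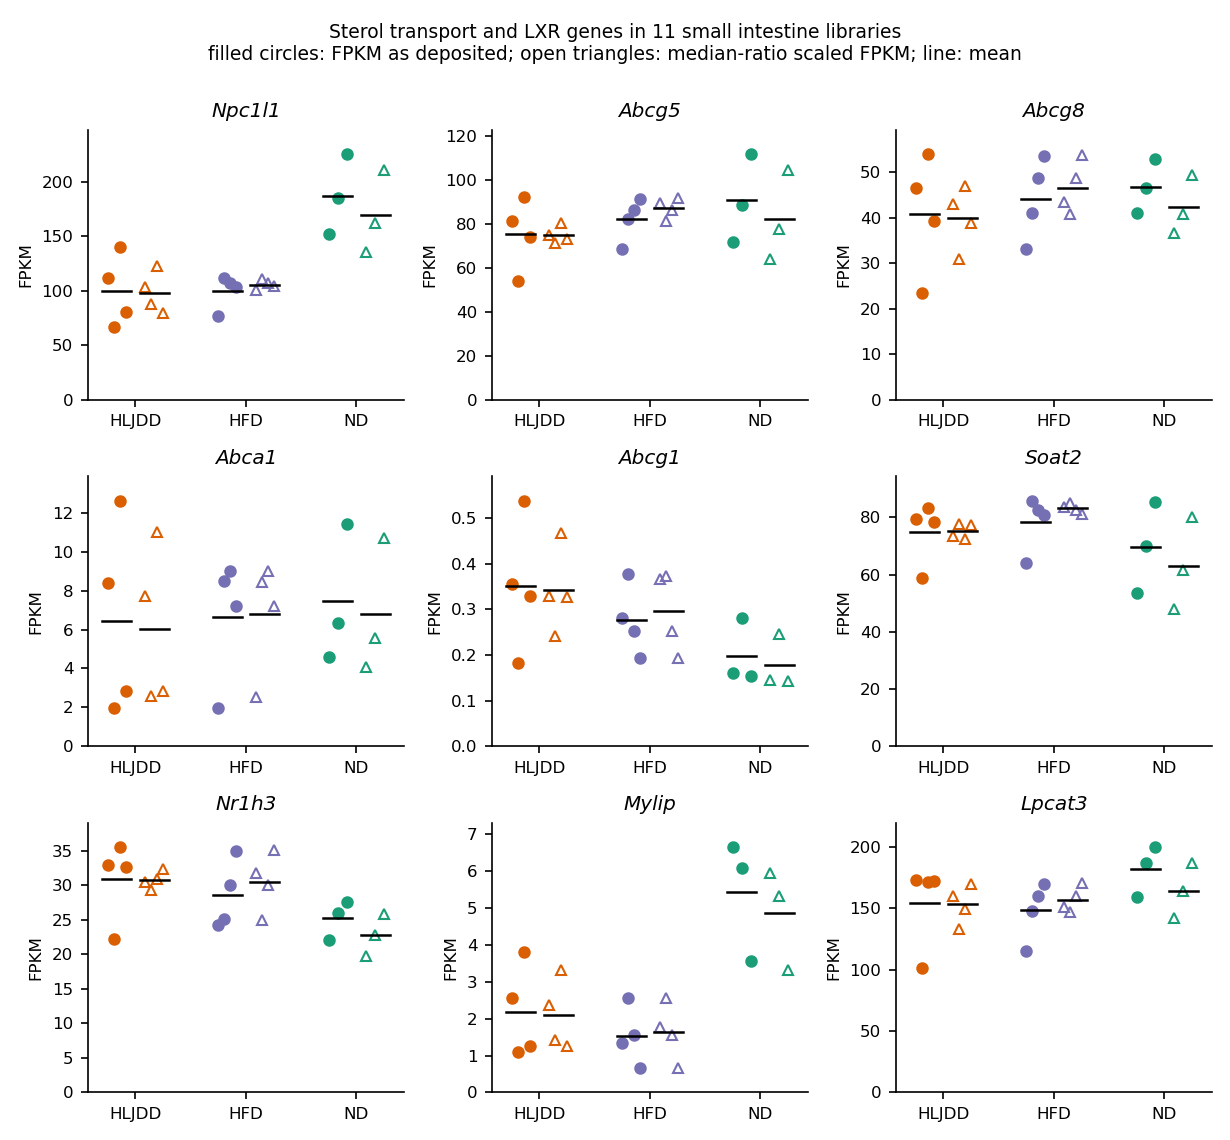
FPKM of each gene in every library, with HLJDD, HFD and ND from left to right. Filled circles are deposited values, open triangles are median-ratio scaled values and lines are means. Npc1l1 lies between 66.4 and 140.6 in HLJDD, 76.5 and 111.7 in HFD, and 151.7 and 225.3 in ND as deposited.

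The comparisons of HLJDD and of HFD with ND ask how the sterol genes in those libraries differ from ND, and both use the same 3 ND libraries. As deposited, 2 of the 8 tested members were lower in HFD than in ND, Npc1l1 and Mylip, and none was higher. Over all genes, 11.5% were called lower and 5.06% higher in that comparison. HLJDD against ND likewise gave Npc1l1 and Mylip as lower and none higher, where 7.79% of all genes were called lower and 4.1% higher. After scaling, Soat2 and Nr1h3 were also called higher in HFD than in ND (12.6% of all genes higher, 12.5% lower), and Nr1h3 in HLJDD than in ND (9.39% higher, 9.88% lower, 19.3% in all). The median log2 change of the 8 members was -0.26 for HLJDD against ND and -0.17 for HFD against ND as deposited, and -0.10 and 0.05 after scaling.

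**Figure D3:**
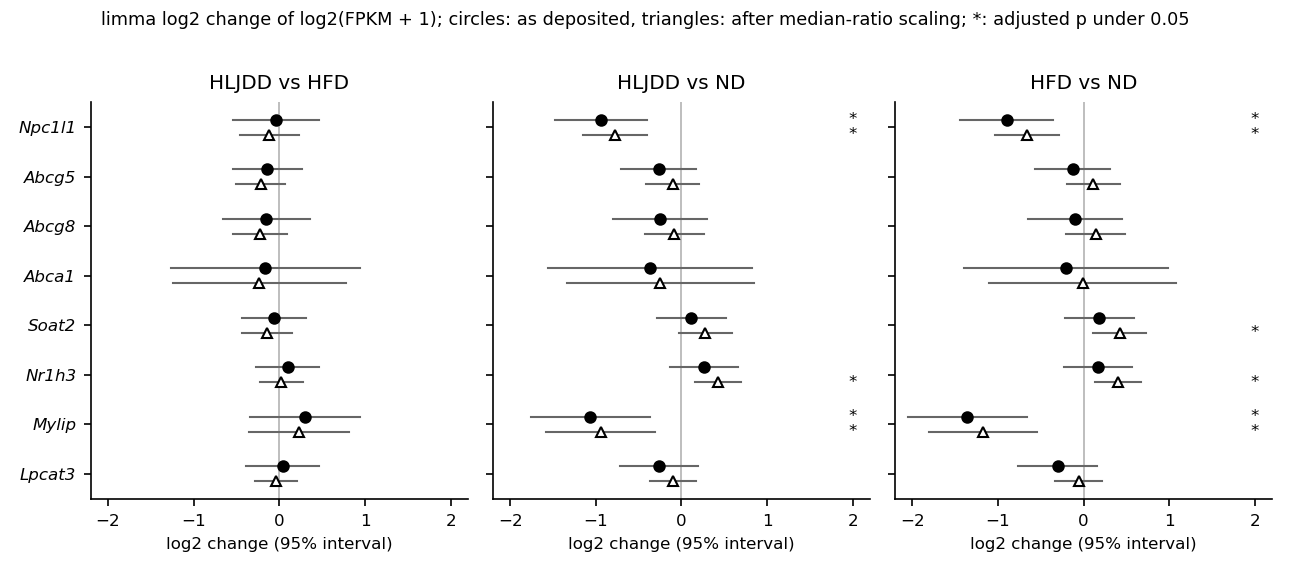
Log2 change of each tested gene with its 95% interval (horizontal axis) in HLJDD against HFD, HLJDD against ND and HFD against ND. Circles are deposited values, triangles scaled values and stars mark an adjusted p under 0.05. Npc1l1 and Mylip are starred on both scales against ND, and no gene is starred in HLJDD against HFD.

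Npc1l1, the uptake transporter that the drug ezetimibe blocks, was the most abundant member to change. It stood at 112.0, 66.4, 140.6 and 80.7 FPKM in HLJDD replicates 1 to 4 and at 76.5, 111.7, 107.0 and 103.6 FPKM in HFD replicates 1 to 4. In ND replicates 1 to 3 it stood at 151.7, 184.9 and 225.3 FPKM. All 8 HLJDD and HFD libraries lay below all 3 ND libraries, on both scales. A complete separation downward was found for 21.3% of all genes in HLJDD against ND and 32.9% in HFD against ND (18.9% and 19.4% after scaling). Means were 99.9 ± 33.2 FPKM in HLJDD (n = 4), 99.7 ± 15.8 FPKM in HFD (n = 4) and 187.3 ± 36.9 FPKM in ND (n = 3). The log2 change was -0.94 for HLJDD against ND (SE 0.247, limma adjusted p = 0.0288) and -0.90 for HFD against ND (SE 0.247, adjusted p = 0.0295). After scaling it was -0.78 (adjusted p = 0.0104) and -0.66 (adjusted p = 0.018). In bulk tissue, fewer cells of a type and less RNA per cell cannot be told apart.

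The Npc1l1 calls were lost under several alternatives. As deposited, the call of HLJDD against ND was lost without HLJDD replicate 4 (adjusted p = 0.0873) or ND replicates 1, 2 or 3 (0.055, 0.103 and 0.0949) and with no filter (0.0701), over a range of 0.00581 to 0.103 across all alternatives. That of HFD against ND was lost without HFD replicate 1 (0.0708), HFD replicate 3 (0.0511) or ND replicates 1, 2 or 3 (0.0522, 0.1 and 0.0923) and with no filter (0.0707), over a range of 0.00663 to 0.1, and on scaled values without ND replicate 2 (0.058) or ND replicate 3 (0.059). Markers of gut stretch moved with the same groups. Gata4 of the upper gut averaged 32.5 ± 4.48 FPKM in HLJDD, 30.5 ± 4.85 FPKM in HFD and 16.6 ± 7.53 FPKM in ND. Slc40a1, another marker on the proximal list, ran the other way (limma adjusted p = 0.00233 in HLJDD and 0.0014 in HFD against ND). It averaged 0.876 ± 0.154 FPKM in HLJDD, 0.734 ± 0.072 FPKM in HFD and 6.54 ± 3.87 FPKM in ND. Slc40a1 passed the filter only through the ND libraries, where it is high, and its calls depend on that. Fabp6, the ileal bile acid carrier, ran from 0.212 to 2.27 FPKM in HLJDD and 1.26 to 4.31 FPKM in HFD, against 9821, 6702 and 397 FPKM in ND replicates 1 to 3. Summed over 8 proximal markers, levels ran from 16600 to 28100 FPKM in HLJDD, 20200 to 27400 in HFD and 1420 to 6880 in ND. Fabp1 (means of 10857, 12448 and 2269 FPKM in the same groups) and Rbp2 (9827, 10526 and 1601 FPKM) made up most of these sums. Cybrd1, also on the proximal list, averaged 0.269, 0.383 and 0.369 FPKM in HLJDD, HFD and ND. The sums of 9 distal markers ran from 114 to 805, 208 to 656 and 1230 to 11200 FPKM in the same groups. In ND, Fabp6 averaged 5640 FPKM of a mean distal sum of 6750 FPKM. The 10 enterocyte markers summed to 20700 to 37100 FPKM in HLJDD, 28600 to 37700 in HFD and 28500 to 41500 in ND. Single enterocyte markers moved apart: Alpi averaged 712.8 ± 278.2 FPKM in HLJDD, 685.2 ± 182.1 FPKM in HFD and 289.1 ± 53.1 FPKM in ND and was called higher in both. Anpep averaged 1044 ± 509.7, 969.3 ± 355.8 and 2170 ± 46.9 FPKM in the same groups and was called lower in both after scaling only, as was Cdh17 in HFD. Of these lists, the proximal marker Pdx1 was at 0 in HFD replicate 1 and ND replicates 2 and 3, and the distal marker Fgf15 in HLJDD replicates 2 and 4 and HFD replicate 4. The stretch sampled and the group cannot be told apart here. Within ND, replicate 3 had the least Fabp6, the most Npc1l1 and the least Mylip.

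Abcg5 and Abcg8, the subunits of the sterol exporter, were not called in any comparison. Abcg5 stood at 81.3, 54.1, 92.2 and 74.2 FPKM in HLJDD, at 68.6, 82.2, 86.5 and 91.3 FPKM in HFD and at 71.9, 88.8 and 111.7 FPKM in ND. Abcg8 stood at 46.6, 23.5, 54.0 and 39.3 FPKM in HLJDD, at 33.2, 41.2, 48.7 and 53.6 FPKM in HFD and at 41.0, 46.5 and 52.9 FPKM in ND. For both genes the groups overlapped, and HLJDD replicate 2 and HFD replicate 1, the libraries of high mitochondrial share, were the lowest of their groups. Against ND, the log2 change of Abcg5 was -0.27 in HLJDD (95% interval -0.71 to 0.17, adjusted p = 0.405) and -0.13 in HFD (-0.57 to 0.31, adjusted p = 0.649). For Abcg8 it was -0.25 in HLJDD (-0.80 to 0.30, adjusted p = 0.545) and -0.10 in HFD (-0.65 to 0.45, adjusted p = 0.788). After scaling the HFD values were 0.11 for Abcg5 and 0.14 for Abcg8, so their sign depended on the scale.

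The ratio of Abcg5 to Abcg8 FPKM inside a library does not depend on scaling. It was 1.91 ± 0.27 in HLJDD, 1.89 ± 0.174 in HFD and 1.92 ± 0.179 in ND. The log2 ratio differed by -0.02 between HLJDD and ND, -0.03 between HFD and ND and 0.01 between HLJDD and HFD (exact two-sided permutation p = 0.771, 0.8 and 0.943). Over the 11 libraries, scaled Abcg5 and Abcg8 had a Pearson r of 0.774 and a Spearman rho of 0.9, as a description of genes with overlapping annotation. The level of Gata4 was higher against ND in HLJDD (log2 change 1.00, adjusted p = 0.0226) and in HFD (0.91, adjusted p = 0.028). Any action of GATA factors at the 3 matches beside Abcg5 and Abcg8 was not tested. Gata4 also marks the stretch of gut, which cannot be told apart from the group.

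Uptake against efflux was compared as the ratio of Npc1l1 to Abcg5 FPKM in each library. The ratio was 1.38, 1.23, 1.53 and 1.09 in HLJDD replicates 1 to 4 and 1.12, 1.36, 1.24 and 1.13 in HFD replicates 1 to 4, against 2.11, 2.08 and 2.02 in ND replicates 1 to 3. All HLJDD and HFD libraries lay below all ND libraries. Means were 1.30 ± 0.189 in HLJDD, 1.21 ± 0.112 in HFD and 2.07 ± 0.048 in ND. The log2 ratio differed by -0.68 between HLJDD and ND and by -0.78 between HFD and ND. Each gave an exact permutation p of 0.0286, the smallest that 35 arrangements allow, and 0.114 after adjustment over the 12 ratio tests, so neither passed. Between HLJDD and HFD the difference was 0.10 (exact permutation p = 0.514, adjusted 0.873). For this ratio too, the stretch sampled and the group cannot be told apart.

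**Figure D4:**
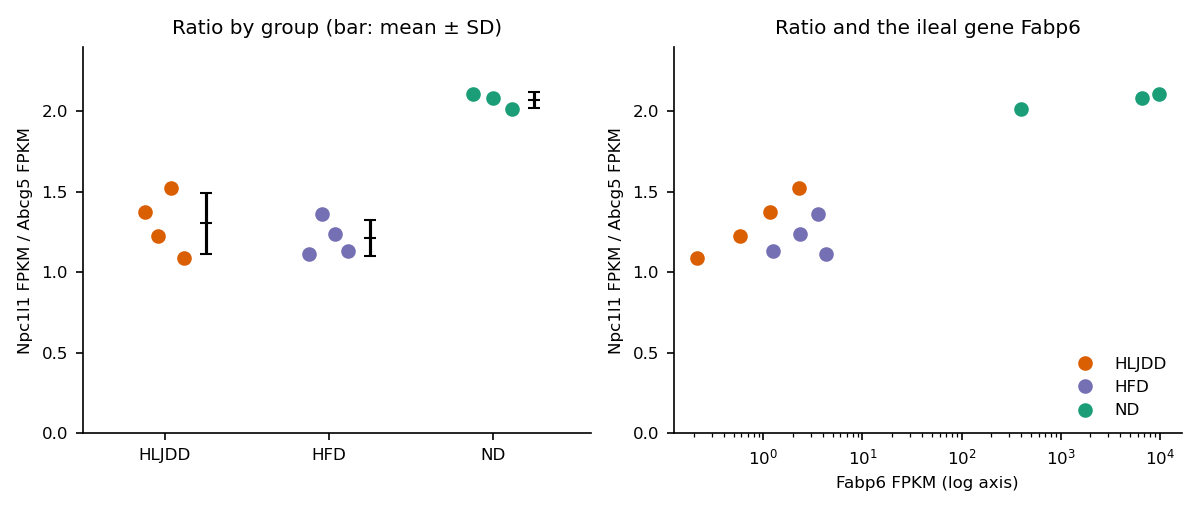
Ratio of Npc1l1 to Abcg5 FPKM in each library (vertical axis), by group with mean ± SD on the left and against Fabp6 FPKM on a log axis on the right. HLJDD spans 1.09 to 1.53, HFD 1.12 to 1.36 and ND 2.02 to 2.11, and the ND libraries have the highest Fabp6.

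Abca1 and Abcg1 send cholesterol to lipoproteins, and macrophages use both. Abca1 stood at 8.37, 1.97, 12.6 and 2.85 FPKM in HLJDD, at 1.94, 8.52, 9.02 and 7.19 FPKM in HFD and at 4.58, 6.32 and 11.4 FPKM in ND. HLJDD replicates 2 and 4 and HFD replicate 1 were below every ND library, and the groups overlapped. With such spread the intervals were wide: -1.56 to 0.82 around a log2 change of -0.37 for HLJDD against ND (adjusted p = 0.687), and -1.40 to 0.99 around -0.21 for HFD against ND (adjusted p = 0.794). Abcg1 averaged 0.352 ± 0.146 FPKM in HLJDD, 0.276 ± 0.076 FPKM in HFD and 0.198 ± 0.072 FPKM in ND, on 32 to 119 reads a library, with overlapping groups. The summed level of 10 macrophage markers, none of them at 0, ran from 20.6 to 91.0 FPKM in HLJDD, 20.2 to 87.4 FPKM in HFD and 22.0 to 28.8 FPKM in ND. Lyz2 (means of 40.0, 35.1 and 13.4 FPKM in the same groups) made up most of the mean sums (57.9, 56.1 and 25.9 FPKM). Single markers moved apart: Adgre1 and Mrc1 averaged highest in ND, while C1qa, Cd68 and Csf1r, among others, averaged lowest there. The part of macrophages in the Abca1 and Abcg1 levels was not tested.

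Soat2, the enterocyte enzyme that forms cholesteryl esters, stood at 79.4, 58.8, 83.2 and 78.4 FPKM in HLJDD and at 64.0, 85.9, 82.6 and 81.0 FPKM in HFD, against 53.6, 70.1 and 85.6 FPKM in ND. As deposited the groups overlapped, with a log2 change of 0.12 for HLJDD (adjusted p = 0.712) and 0.18 for HFD (adjusted p = 0.476) against ND. After scaling the HFD libraries (81.2 to 85.1) lay above the ND libraries (47.9 to 80.0), and the log2 change of 0.42 was called (adjusted p = 0.049). A complete separation upward was found for 18.2% of all genes on that scale and 9.57% as deposited. The scaled call was lost when any of HFD replicates 1 to 4 or ND replicates 1 or 2 was left out, with adjusted p from 0.068 to 0.184. On the scaled values HLJDD gave 0.28 against ND (adjusted p = 0.183). Soat1, the general enzyme of the same reaction, was at 2.16 ± 0.80 FPKM in HLJDD, 1.99 ± 0.50 FPKM in HFD and 0.947 ± 0.071 FPKM in ND. Soat1, which reached 1 FPKM in only 1 ND library, was called higher on the scaled values only, by 0.73 in HLJDD (adjusted p = 0.00893) and 0.74 in HFD (adjusted p = 0.00682). The Soat2 to Soat1 ratio was 38.6 ± 14.1 in HLJDD, 40.6 ± 7.80 in HFD and 73.7 ± 16.9 in ND (exact permutation p against ND 0.0571 and 0.0286, adjusted 0.171 and 0.114), and Soat2 lay far above Soat1 per gene length in every group.

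Nr1h3, which encodes LXR alpha, stood at 33.0, 22.2, 35.5 and 32.6 FPKM in HLJDD, at 24.2, 25.2, 30.1 and 35.004 FPKM in HFD and at 22.1, 25.9 and 27.6 FPKM in ND. As deposited HLJDD replicate 2 lay among the ND libraries and the other 3 HLJDD libraries above them, HFD overlapped ND, and the log2 change was 0.27 for HLJDD (adjusted p = 0.36) and 0.17 for HFD (adjusted p = 0.507) against ND. Scaled means were 30.8 ± 1.22 in HLJDD, 30.5 ± 4.24 in HFD and 22.8 ± 3.04 in ND. On that scale every HLJDD library lay above every ND library, as did 18.0% of all genes (8.3% as deposited), with a log2 change of 0.43 (adjusted p = 0.0337). For HFD it was 0.40 (adjusted p = 0.0346). The scaled HLJDD call was lost without HLJDD replicates 1, 3 or 4 or ND replicates 1 or 2 (adjusted p from 0.0572 to 0.15). The scaled HFD call was lost without HFD replicates 1, 3 or 4 or ND replicates 1 or 2 (0.0661 to 0.147).

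LXR beta, from Nr1h2, was not called: 16.0 ± 0.754 FPKM in HLJDD, 16.4 ± 1.34 FPKM in HFD and 17.1 ± 2.196 FPKM in ND, with adjusted p of 0.697 and 0.776 against ND. The ratio of Nr1h3 to Nr1h2 was 1.92 ± 0.312 in HLJDD, 1.77 ± 0.422 in HFD and 1.48 ± 0.034 in ND. Its log2 difference from ND was 0.36 in HLJDD (exact permutation p = 0.114, adjusted 0.274) and 0.23 in HFD (p = 0.343), which did not pass. Of 8 tested LXR partners and coregulators, 1 was lower in HFD than in ND, the corepressor gene Ncor1 (11.9 ± 0.838 against 17.7 ± 0.267 FPKM, adjusted p = 0.0165), a share near the 11.5% of all genes called lower there. None was called in HLJDD against ND. After scaling, Rxra and Ncoa1 joined Ncor1 as lower in HFD, where 12.5% of all genes were called lower on that scale.

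Mylip, the IDOL gene, had the largest change of the members. It stood at 2.57, 1.09, 3.81 and 1.26 FPKM in HLJDD and at 1.35, 2.57, 1.55 and 0.663 FPKM in HFD, against 6.65, 6.08 and 3.55 FPKM in ND, on 93 to 882 reads a library. All HFD libraries lay below all ND libraries, while HLJDD replicate 3 lay above ND replicate 3 as deposited and just below it after scaling. A complete separation downward was common: 32.9% of all genes in HFD against ND as deposited and 19.4% after scaling. In HLJDD against ND it was found for 18.9% of all genes after scaling. Means were 2.18 ± 1.27 FPKM in HLJDD, 1.54 ± 0.791 FPKM in HFD and 5.43 ± 1.65 FPKM in ND. Mylip fell by 1.06 on the log2 scale in HLJDD (SE 0.319, adjusted p = 0.0497) and by 1.36 in HFD (SE 0.319, adjusted p = 0.0148). After scaling it fell by 0.95 (adjusted p = 0.0415) and 1.18 (adjusted p = 0.014). The HLJDD call sat at the threshold and was lost under 6 of 9 alternatives that kept all libraries and 12 of 16 that left libraries out, with adjusted p from 0.0179 to 0.21. Among them were the fits without HLJDD replicates 1, 2 or 4 (0.071, 0.0954 and 0.138) or ND replicates 1 or 2 (0.21 and 0.177). The HFD call was lost without ND replicate 1 (0.0797, and 0.0678 on scaled values), without ND replicate 2 (0.0722, and 0.0607 on scaled values) and with no filter (0.0512), over a range of 0.00937 to 0.0797. In ND, Mylip was at 6.65, 6.08 and 3.55 FPKM where Fabp6 was at 9821, 6702 and 397 FPKM, and the part of gut stretch in the Mylip change cannot be told apart from the group.

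The 3 kept genes with profiles most like Mylip over the 11 scaled libraries were Stard4 (r = 0.968), Rnf145 (0.959) and Srebf2 (0.956), and libraries of 1 group share their condition. Stard4 carries sterol through the cytosol and Srebf2 encodes SREBP2. Scaled Mylip and Nr1h3 had a Pearson r of -0.875 and a Spearman rho of -0.791 over the same libraries. That r was the largest in size between any members. Both genes were called against ND on that scale, in opposite directions, and a link between them was not tested.

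Lpcat3, the acyltransferase, stood at 173.4, 101.3, 171.7 and 172.2 FPKM in HLJDD, at 115.4, 148.3, 160.2 and 169.8 FPKM in HFD and at 159.1, 187.2 and 199.95 FPKM in ND. The groups overlapped, with HLJDD replicate 2 and HFD replicate 1 low. Its log2 change was -0.26 in HLJDD (95% interval -0.72 to 0.20, adjusted p = 0.435) and -0.30 in HFD (-0.76 to 0.16, adjusted p = 0.301) against ND. Of 5 other lysophospholipid acyltransferases tested, Lpcat4 and Mboat1 were lower in both comparisons and on both scales. The share of all genes called lower was 7.79% in HLJDD against ND and 11.5% in HFD against ND (9.88% and 12.5% after scaling). Lpcat4 was at 2.83 ± 0.842 FPKM in HLJDD, 2.39 ± 0.540 FPKM in HFD and 11.5 ± 7.27 FPKM in ND. Mboat1 was at 0.570 ± 0.168, 0.573 ± 0.256 and 2.52 ± 0.641 FPKM in the same groups, and passed the filter only through the ND libraries, where it is high. Lpcat4, like Fabp6, was lowest of the ND libraries in replicate 3 (17.5, 13.6 and 3.44 FPKM).

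Other listed LXR target genes moved in both directions. Of 12 tested, 4 rose and 2 fell in HLJDD against ND on both scales, and 2 rose and 4 fell in HFD against ND as deposited (4 and 4 after scaling). Over all genes as deposited, 4.1% were called higher and 7.79% lower in HLJDD against ND, and 5.06% higher and 11.5% lower in HFD against ND. After scaling, 9.39% were higher and 9.88% lower in HLJDD against ND, and 12.6% higher and 12.5% lower in HFD against ND. The lipogenic regulator gene Srebf1 rose in both, at 26.6 ± 13.3 FPKM in HLJDD and 18.9 ± 3.86 FPKM in HFD, against 8.08 ± 1.54 FPKM in ND (log2 change 1.47, adjusted p = 0.0185, and 1.12, adjusted p = 0.0453). Apoc2 was also called higher in both, but at 0.105 to 0.53 FPKM in ND it passed the filter only through the HLJDD and HFD libraries. Lpl and the desaturase gene Scd1 rose in HLJDD and, after scaling, in HFD. Scd1 was at 37.6 ± 12.1 FPKM in HLJDD, 16.5 ± 0.827 FPKM in HFD and 10.2 ± 2.598 FPKM in ND. The desaturase gene Scd2 fell to 5.54 ± 4.28 FPKM in HLJDD and 3.66 ± 1.85 FPKM in HFD, against 30.0 ± 1.32 FPKM in ND. Smpdl3a fell to 31.5 ± 8.55 FPKM in HLJDD and 27.6 ± 6.98 FPKM in HFD, against 70.4 ± 6.91 FPKM in ND. Abca7 and Fasn fell in HFD and were not called in HLJDD, and their difference between HLJDD and HFD did not pass (adjusted p = 0.999 for each).

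Among 25 SREBP2 target genes, the arm opposed to LXR, 16 fell and 1 rose in HLJDD against ND (20 and 1 after scaling). In HFD against ND 20 fell and none rose (21 fell after scaling). Over all genes, 7.79% were called lower in HLJDD against ND and 11.5% in HFD against ND (9.88% and 12.5% after scaling). Earlier results on these libraries already showed the fall of SREBP2 targets, so the list is no independent evidence of direction. For this list too, the stretch sampled and the group cannot be told apart. Sqle, an enzyme of sterol synthesis, fell to 4.75 ± 1.33 FPKM in HLJDD and 4.71 ± 1.78 FPKM in HFD, against 35.3 ± 14.7 FPKM in ND. The 1 that rose in HLJDD was Insig1, which holds SREBP in the endoplasmic reticulum. Of 16 genes of sterol entry and transfer, Gramd1a, under 1 FPKM in 2 of 3 ND libraries, rose in HLJDD, and Gramd1c and Stard4 fell in HFD (4 higher and 2 lower in HLJDD, and 5 higher and 4 lower in HFD, after scaling). Of 5 genes of ester turnover and chylomicron loading, the lysosomal lipase gene Lipa rose in HLJDD and none was called in HFD as deposited. After scaling Soat1, Lipa and Mttp rose in both. The share of all genes called higher was 4.1% in HLJDD against ND and 5.06% in HFD against ND (9.39% and 12.6% after scaling). None of 4 tested genes of oxysterol metabolism, which makes and clears LXR ligands, was called in either comparison on either scale.

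The comparison of HLJDD with HFD asks how the sterol genes differ between those libraries. None of the 8 tested members was called, and limma called 0 of 10764 genes (0.0%), with 186 at an unadjusted p under 0.05. After scaling it again called 0, with 581 at an unadjusted p under 0.05, and limma-voom on the recovered reads called 0. The log2 changes of the members ran from -0.16 for Abca1 to 0.30 for Mylip, all at adjusted p = 0.999. Mylip had an interval of -0.35 to 0.94, Npc1l1 one of -0.54 to 0.46 around -0.04, and Abca1 one of -1.27 to 0.94. These intervals bound the difference and do not show that the groups were alike.

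On scaled values the HLJDD libraries lay wholly below the HFD libraries for 2 members. Scaled Abcg5 was at 71.3 to 80.3 in HLJDD and 81.5 to 91.6 in HFD, with means of 75.0 ± 3.85 and 87.3 ± 4.45. Scaled Soat2 was at 72.4 to 77.6 in HLJDD and 81.2 to 85.1 in HFD, with means of 75.2 ± 2.68 and 83.2 ± 1.68. Such a separation downward was found for 1.66% of all genes on that scale, against 0.548% as deposited, where both genes overlapped (0.483% upward). The scaled log2 changes of -0.22 for Abcg5 and -0.14 for Soat2 did not pass (adjusted p = 0.834 and 0.878). No gene of the other pathway lists was called between HLJDD and HFD. Scd1 had the smallest p among the other LXR targets, with a log2 change of 1.08 (95% interval 0.57 to 1.59, adjusted p = 0.999; 0.531 after scaling). Every HLJDD library (20.4 to 48.2 FPKM) lay above every HFD library (15.8 to 17.5 FPKM). It was called without HLJDD replicate 2 (log2 change 1.34, adjusted p = 0.0369), its lowest HLJDD library. Adipocyte markers had a median log2 change of 1.26 over 6 genes between HLJDD and HFD, but none was called on either scale. Their summed levels were 57.6 to 227.0 FPKM in HLJDD, 25.1 to 91.8 FPKM in HFD and 42.3 to 70.4 FPKM in ND. The part of adipocytes in the Scd1 and Lpl levels was not tested.

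The genes most like the other members over the 11 scaled libraries were these, by Pearson r. Npc1l1 was closest to Amn (0.968), Plbd1 (0.959) and the tight junction gene Cldn7 (0.952). Abcg5 was closest to the sugar carrier gene Slc5a9 (0.915), and Abcg8 to the amino acid carrier gene Slc16a10 (0.891). Soat2 was closest to Cog1 (0.979), Nr1h3 to Dhrs1 (0.982), Abca1 to the ceramidase gene Asah2 (0.924) and Lpcat3 to Mcrs1 (0.958). Each r describes 11 points that fall into 3 groups.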

How the data were processed

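RNA of mouse small intestine was measured in 11 libraries, grouped by their titles (HLJDD n = 4, HFD n = 4, ND n = 3). The deposited values are FPKM, which the authors gave per gene symbol and library for 24294 symbols. TRIzol was used for extraction and a VAHTS Universal V6 kit for the libraries, per the labels' protocols. The submitters' processing notes name fastp, HISAT2, HTSeq, R 3.2.0 and mm10. The sources used here do not give the annotation or strand setting.

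FPKM values were whole multiples of 1 read, so whole reads were recovered for all 24294 symbols, at most 0.0017 reads from a whole number, and totals ran from 30101888 to 37943272. Genes at 1 FPKM or more in at least 3 libraries (10764) were tested on log2(FPKM + 1), a scale that understates changes of low genes, with limma 3.58.1 in R 4.3.3. One fit held all 11 libraries, with a variance trend, and two-sided p-values were adjusted by Benjamini-Hochberg with a threshold of 0.05. The fit was also run on simulated data with the same spread setting for all genes. Those data held no differences in gut stretch or mitochondrial share, so they cannot show how sound the calls made here are. Ratios within a library were tested by exact two-sided permutation, adjusted over 12 tests. Median-ratio scaling, other filters and pseudocounts, limma-voom on recovered reads, a replicate block and leaving out libraries were the alternatives. Leaving out libraries on scaled values was chosen after seeing the data.

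All 9 members were named in every comparison, and of the other lists up to 3 genes with the smallest adjusted p, and the 3 kept genes most like a member. Further genes of small counts, and Nr1h2, Soat1, Sqle and Scd1, were named after their values were seen. The members and lists were chosen with earlier results of these data known. Some items are not reported here. Motifs were searched in RefSeq windows of GRCm38.p6.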

Additional observations from a re-analysis of the deposited data

Results flagged for a closer look

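Lpcat3 in HLJDD replicate 2 was at 101.3 FPKM, far below the other 3 HLJDD libraries (171.7 to 173.4 FPKM). The log2 ratio of Nr1h3 to Nr1h2 in the same library was 0.541, also apart from the rest of its group. Both were singled out because the gap to the nearest library took up most of the range of the group. Of 26 groups of 4 libraries looked at, 2 stood out, and chance gives about 1 in 20. HLJDD replicate 2 also had the highest mitochondrial share (40.73%), and the part of that share in these values was not tested.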

How the results depend on the processing

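Direction against ND was kept for Npc1l1 and Mylip under every alternative run. The members called in HFD and in HLJDD against ND numbered 1 and 1 with a mean of at least 5 FPKM, where Mylip was not tested, and 0 and 0 with no filter. In HLJDD against ND 1 was called with limma-voom, with a pseudocount of 0.1 and on TPM. Median-ratio scaling called 4 in HFD against ND. Genes called in HFD and HLJDD against ND were 2695 and 2074 with median-ratio scaling and 2804 and 2297 with quantile normalization, and 1145 in HFD against ND on TPM. Without HFD replicate 1 and HLJDD replicate 2, 3352 and 2575 were called, and with scaling as well 2952 and 2636. Replicate numbers did not pair libraries (correlations of same-numbered deviations from -0.264 to 0.339). With the replicate block 1080 and 724 genes were called and 0 members in HLJDD against ND, where Npc1l1 was at adjusted p = 0.0502, and with the replicate block and scaling 1 member was called.

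Leaving out libraries gave 664 to 3352 genes and 0 to 3 members in HFD against ND, 470 to 2636 genes and 0 to 4 members in HLJDD against ND, and 0 to 1 genes in HLJDD against HFD. The 1 gene was Hsph1 without HFD replicate 1 and HLJDD replicate 2, and Scd1 without HLJDD replicate 2.

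Signs that turned were all of values past no threshold, and the cause was not tested. Median-ratio scaling gave 0.114 for Abcg5 and 0.141 for Abcg8 in HFD against ND, and -0.038 for Lpcat3 in HLJDD against HFD. Quantile normalization gave 0.006 for Abca1 and 0.056 for Abcg8 in HFD against ND. The replicate block with scaling gave 0.072 for Abca1, 0.107 for Abcg5 and 0.111 for Abcg8 in HFD against ND, and -0.038 for Lpcat3 in HLJDD against HFD. Without HFD replicate 1 and HLJDD replicate 2, with scaling, the values were 0.332 for Abca1, 0.1 for Abcg5 and 0.173 for Abcg8 in HFD against ND, and 0.014 for Abca1 and 0.028 for Abcg8 in HLJDD against ND. Leaving out libraries in HFD against ND gave -0.464 to 0.332 for Abca1, -0.283 to 0.299 for Abcg5, -0.196 to 0.258 for Abcg8 and -0.395 to 0.038 for Lpcat3. In HLJDD against HFD it gave -0.577 to 0.190 for Abca1, -0.249 to 0.010 for Abcg5, -0.308 to 0.086 for Abcg8, -0.229 to 0.134 for Npc1l1, -0.090 to 0.230 for Lpcat3, -0.066 to 0.243 for Nr1h3 and -0.159 to 0.044 for Soat2. In HLJDD against ND it gave -0.748 to 0.095 for Abca1, -0.422 to 0.083 for Abcg5, -0.399 to 0.031 for Abcg8, -0.356 to 0.000 for Lpcat3 and -0.059 to 0.464 for Soat2. The log2 ratio of Abcg5 to Abcg8 ran from -0.094 to 0.039 in HFD against ND, -0.079 to 0.064 in HLJDD against HFD and -0.108 to 0.053 in HLJDD against ND. Abcg1, at 32 to 119 reads a library, and Mylip, at 93 to 882, carry the largest counting error of the members.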

Other observations

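Some adipocyte markers were higher in HLJDD than in ND. Of 6 tested, Adipoq, Lep, Plin1 and Retn were called higher on both scales. Over all genes, 4.1% were called higher in that comparison as deposited and 9.39% after scaling. None of the 6 was called in HFD against ND or in HLJDD against HFD. Lep, Plin1 and Retn were under 1 FPKM in every ND library, so they passed the filter only through the groups where they are high, and their calls depend on that. The summed level of all 6, with none at 0, ran from 57.6 to 227.0 FPKM in HLJDD, 25.1 to 91.8 FPKM in HFD and 42.3 to 70.4 FPKM in ND. HLJDD replicate 4, at 57.6 FPKM, lay inside the ND range. Lpl, which fat tissue also makes, was at 20.9 ± 9.92 FPKM in HLJDD, 8.42 ± 5.58 FPKM in HFD and 2.29 ± 0.502 FPKM in ND. Summed levels of 6 B and plasma cell markers ran from 112.0 to 296.0 FPKM in HLJDD, 125.0 to 278.0 FPKM in HFD and 37.8 to 64.6 FPKM in ND, and those of 6 smooth muscle markers from 163.0 to 437.0, 147.0 to 582.0 and 433.0 to 611.0 FPKM in the same groups.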
